A study of Glycine max with 4 samples.

Results

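Low ratios near the start of chromosome 16 were examined in a window of 1 Mb, from 1 to 2 Mb of soybean assembly Glyma.Wm82.a2.v1, the build from which the array was designed. The window was chosen by the log2 ratios of these same arrays, which an earlier look had shown to be low there in every plant, so the low values are a description and were given no test. It held 1650 probes of the 951615 on the array, and all of them had a value on all 4 arrays. Within it, 31 probes had a log2 ratio of mutant to wild type of -1 or lower in every plant, where -1 is a mutant signal at 50% of the wild-type signal. With normexp background correction of the unprocessed signals in place of the processed ones, 20 probes were that low, 19 of them among the 31. At 12 of the 31 the mutant signal was not well above background on any array, so that their ratios are values against background and have no order among themselves.

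Genomic DNA from leaf tissue of 4 plants was compared by array comparative genomic hybridization (aCGH), 1 plant per array. Plants 15 and 39 belonged to line CM7F040P05 (P05) and plants 35 and 45 to line CM7F040P06 (P06), both of a fast neutron family. P06 is the ending of one of the names of the high-sucrose/low-oil mutant FN0176450. Every array carried the same reference, the wild-type parent “M92-220” (M92-220-Long in the labels), in Cy5 and the mutant in Cy3. No array had the dyes exchanged, so a dye effect of a probe and a difference from the reference DNA shared by all plants cannot be told apart from the ratio alone. No “M92-220” plant was hybridized against the reference, which leaves the spread of “M92-220” itself unmeasured. Each labeling reaction took 500 ng of DNA.

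In aCGH the DNA of a mutant and of a reference compete for short probes, and a probe gives a low ratio when its sequence is missing from the mutant or differs from it enough to hybridize poorly. A homozygous deletion lowers every unique probe across it, so that its profile drops at one edge and returns at the other. Between haplotypes, sequence differences lie at scattered places, and a probe is lowered where the other haplotype lacks or has altered its sequence. Soybean breeding lines are derived from selected plants and can carry segments that differ between sublines. Which of these applies to the chromosome 16 probes was not tested. Gene models of this build were not used here, so probes are placed by position and not by gene.

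The shared low probes ran from Gm_CUST_P12523314 at positions 1240970 to 1241029 to Gm_CUST_P12526089 at 1740715 to 1740774, a span of 499.8 kb with 832 probes. They were 3.73% of the probes of this stretch and 1.88% of the probes of the window, and over the whole array 0.0249% of probes were as low on all 4 arrays. The rule of the window used these same ratios, so nothing is read from that difference. Averaged over these probes, the log2 ratios of plants 15, 39, 35 and 45 were -3.15, -3.10, -3.07 and -3.12, or -3.11 ± 0.033 (SD, n = 4 plants). Cy3 was not well above background on any array at 12 of these probes, so this mean depends on the background. With normexp, the 20 probes then low had a mean of -2.17 ± 0.052. The plants of P05 did not stand apart from those of P06 in the mean of -3.11. Every probe in it had to be low in both lines, so nothing is read from this.

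**Figure D1:**
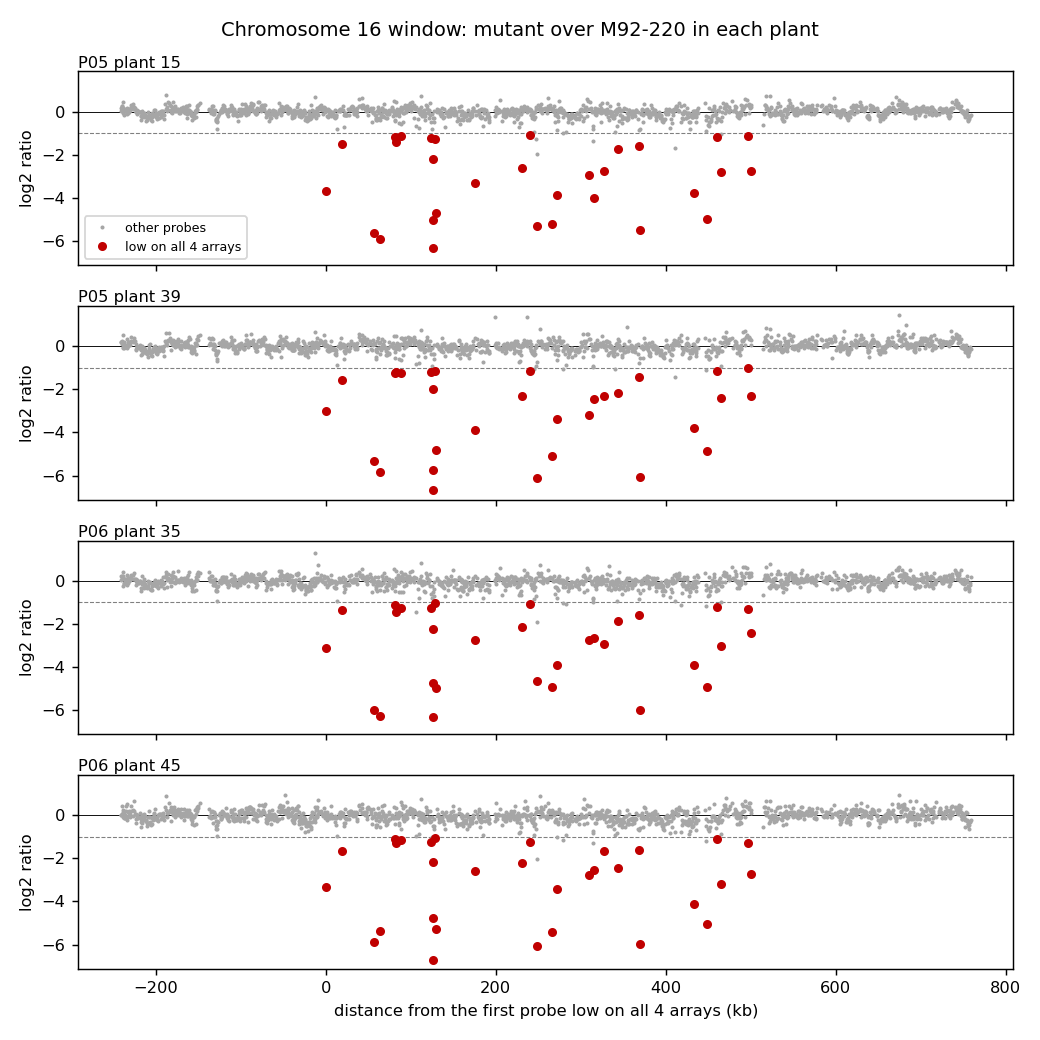
Log2 ratio of mutant over “M92-220” (y axis) at the 1650 probes of the chromosome 16 window in each of the 4 plants, by distance in kb from the first shared low probe (x axis). The 31 red points, low on all 4 arrays, sit at the same places in each panel among gray probes near 0, and none lies before 0 kb or past 499.8 kb.

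By definition the stretch began and ended with a shared low probe, so the probes just outside it were not low. The last probe before the stretch ended 365 bp before Gm_CUST_P12523314 and had a mean log2 ratio of -0.019, while Gm_CUST_P12523314 itself stood at -3.69, -3.00, -3.11 and -3.35 in plants 15, 39, 35 and 45. The probe on its inner side had a mean of 0.11, and 30 probes lay between it and the next low one, so both sides of this first probe were alike. The 10 probes on the left, from 1234421 to 1240604, ranged from -0.18 to 0.49 in single plants. All of the 431 window probes on the left lacked a shared low value, and their lowest mean was -0.84. At the far edge, Gm_CUST_P12526089 stood at -2.74, -2.31, -2.43 and -2.73 in plants 15, 39, 35 and 45, the next probe, 530 bp on, had a mean of 0.29, and the probe on its inner side 0.33. With normexp this last probe had a mean of -0.80 and the last low probe ended at 1737380. The 10 probes that follow, from 1741305 to 1759638, ranged from -0.66 to 0.84 in single plants. Of the 387 window probes on the right, 0 were low in all plants, and their lowest mean was -0.50. On the remaining 36060 probes of chromosome 16 that had a value on all arrays, 1 was low in every plant, Gm_CUST_P12561848 at 9099619 to 9099671, with a mean of -1.39.

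Within the stretch the low probes were scattered rather than continuous. Of the 31, 27 had no low probe next to them on either side, the longest run of consecutive low probes was 2, and there were 0 runs of at least 3. Successive low probes were from 0.264 to 63.0 kb apart, with a median of 10.2 kb and a median of 16.5 other probes between them. Of the 236 other probes within 5 positions of a low probe, 192 (81.4%) stayed between -0.5 and 0.5 in every plant, fewer than the 92.8% of all probes, 94.9% before the stretch and 89.9% after it. The median of their means was -0.010. For the 801 probes of the stretch that were not low in all plants, the median was -0.051, against -0.0087 before the stretch and 0.041 after it. Each of the 11 bins of 50 kb from 1200000 to 1749999 held at least 1 shared low probe, and the other 9 bins of the window held 0.

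**Figure D2:**
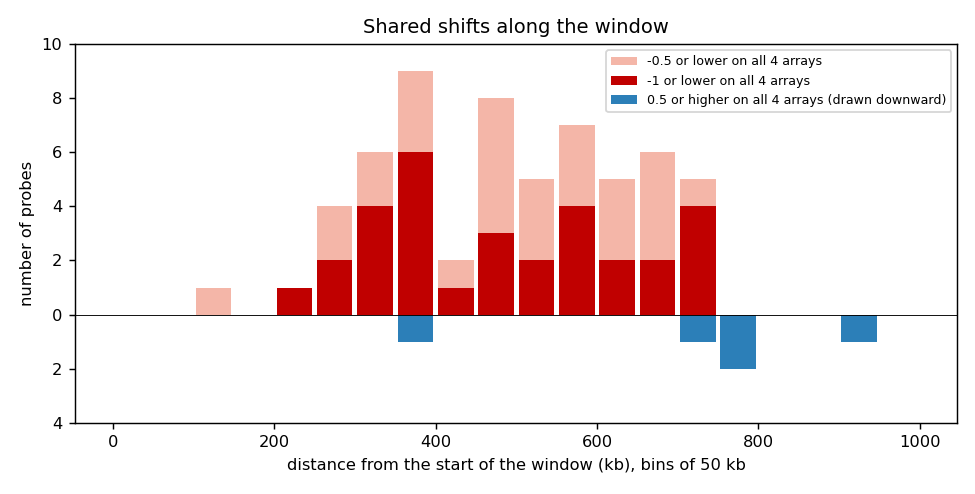
Number of probes (y axis) shifted in the same direction on all 4 arrays, in bins of 50 kb from the start of the window (x axis); red bars count probes at -1 or lower, pale bars those at -0.5 or lower, and blue bars, drawn downward, those at 0.5 or higher. Red bars run without a break from 200 to 750 kb and reach 6 probes in the bin that starts at 350 kb.

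When low probes under 10 kb apart were joined, 24 of the 31 fell into 9 clusters of at least 2 and 7 stood alone. The largest cluster, from 1365099 to 1370840, had 6 low probes among its 12 probes over 5.74 kb. In this cluster Gm_CUST_P12524050, at 1366648 to 1366707, had log2 ratios of -5.05, -5.73, -4.74 and -4.79 in plants 15, 39, 35 and 45, with Cy3 not well above background. The next probe, which starts 231 bp after its end, had a mean of -0.42. Gm_CUST_P12524056, at 1367244 to 1367302, had -6.32, -6.68, -6.33 and -6.72 in the same order, again with Cy3 not well above background on any array. Its right neighbor Gm_CUST_P12524059, 205 bp on, stood at -2.22, -1.98, -2.23 and -2.17. Between the low probes the ratios rose but mostly stayed below 0: the other 6 probes of the cluster had means from -0.89 to -0.046, with a median of -0.40, and the 4 plants followed the same course. At the end of the cluster Gm_CUST_P12524077, at 1370781 to 1370840, had -4.69, -4.80, -4.96 and -5.27 in plants 15, 39, 35 and 45, and the next probe had a mean of 0.064.

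**Figure D3:**
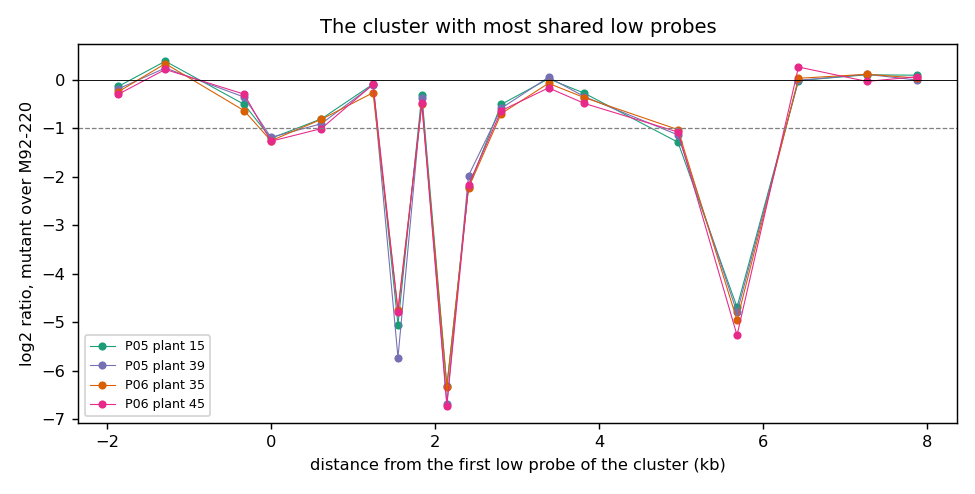
Log2 ratio of mutant over “M92-220” (y axis) in each plant at the 12 probes of the largest cluster and 3 probes on either side, by distance in kb from its first low probe (x axis). The lines of the 4 plants drop together at the same probes, such as the one at 2.145 kb with a mean of -6.51, and rise between them to means of -0.89 to -0.046.

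The other clusters held 2 or 3 low probes each. From 1298132 to 1305372, 2 of 15 probes were low, with means of -5.70 and -5.84. Gm_CUST_P12523624, at 1298132 to 1298191, stood at -5.63, -5.33, -6.00 and -5.86 in plants 15, 39, 35 and 45, and its right neighbor at a mean of 0.049. Gm_CUST_P12523682, at 1305313 to 1305372, stood at -5.90, -5.81, -6.25 and -5.38. From 1322444 to 1329373, 3 of 19 probes were low, and all had means between -1.33 and -1.16, so this cluster held no deep probe. The longest cluster, from 1471706 to 1489415, had 3 low probes among 33 over 17.7 kb. Its last, Gm_CUST_P12524777 at 1489358 to 1489415, had -5.31, -6.10, -4.67 and -6.08 in plants 15, 39, 35 and 45. From 1507038 to 1513234, 2 of 12 were low, and Gm_CUST_P12524845 at 1507038 to 1507097 stood at -5.23, -5.09, -4.93 and -5.43.

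Farther along, 2 of the 10 probes from 1551102 to 1556862 were low, with means of -2.91 and -2.93. From 1610080 to 1611243 it was 2 of 3 probes. The second of them, Gm_CUST_P12525414 at 1611184 to 1611243, had -5.51, -6.05, -6.01 and -5.96 in plants 15, 39, 35 and 45, whereas the probe between both stood at a mean of -0.62. At Gm_CUST_P12525414 Cy3 was not well above background on any array, which bounds the difference at 13.8-fold in P05 and 16.3-fold in P06. With normexp its mean was -1.55. The widest interval without a shared low probe followed, 63.0 kb with 109 probes, up to Gm_CUST_P12525794 at 1674216 to 1674275. That probe stood alone, with -3.79, -3.79, -3.89 and -4.13 in the 4 plants. Gm_CUST_P12525838, at 1689892 to 1689951, also stood alone, with -4.96, -4.86, -4.94 and -5.06. Its Cy3 was 7.43 to 9.95, not well above background on any array, which bounds the difference at 6.75-fold in P05 and 7.11-fold in P06, and with normexp its mean was -0.74. The last clusters were from 1701680 to 1705825, with 2 of 8 probes low, and from 1737321 to 1740774, with 2 of 6. In the last one the other 4 probes had means from 0.29 to 0.33.

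The low probes had different log2 ratios. By their means, 10 probes lay between -1.56 and -1.13, 12 between -3.90 and -2.06, and 9 between -6.51 and -4.93. At 4 of the 12 and 8 of the 9, Cy3 was not well above background on any array. Those means are values against background, so the groups do not rank these probes by depth. The lowest single values were -6.32, -6.68, -6.33 and -6.72 in plants 15, 39, 35 and 45, and the highest -1.11, -1.02, -1.03 and -1.08. Between the highest and lowest plant, a probe differed by 0.43 at the median, by 0.072 at least and by 1.58 at most. Among the 10 shallow probes, where both signals were well above background in all plants, the median SD over plants was 0.086. No spread is compared with the deeper probes, since many of their mutant signals were at background. Across the 31 probes the correlation between arrays was 0.96 to 0.98; this is across probes, which share 1 reference DNA and are not replicates. Just inside the threshold of -1 were Gm_CUST_P12526076, with a highest plant of -1.02, and Gm_CUST_P12524074, with -1.03. Just outside it were Gm_CUST_P12524907, with -0.98, and Gm_CUST_P12525832, with -0.91.

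**Figure D4:**
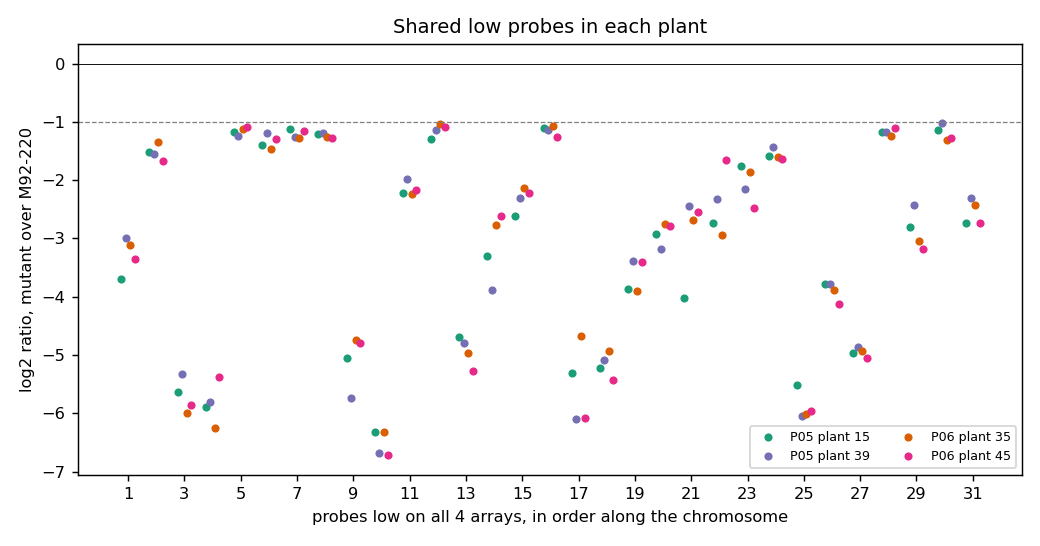
Log2 ratio of mutant over “M92-220” (y axis) of the 31 shared low probes in order along the chromosome (x axis), 1 point for each plant. The 4 points of a probe lie close together, by a median of 0.43 from highest to lowest, while the means of the probes range from -1.13 to -6.51, the deepest of them with Cy3 not well above background.

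The signals of both dyes were examined to see how low the mutant signal was. Cy5 of “M92-220” was well above background on all 4 arrays at all 31 probes. Its median at these probes was 629 to 673 over the arrays, below the 1033 to 1054 at the other probes of the window. Cy3 of the mutant had a median of 63.7 to 95.9 at the low probes and of 996 to 1035 at the others. At 12 low probes Cy3 was not well above background on any array, at 2 on some arrays, and at 17 it was well above background in all plants. Among the 9 probes with the lowest means, 8 were of the first kind and 0 of the last. All 10 of the shallow probes kept a mutant signal well above background, from 75.6 to 1494. A mutant signal at background and a reduced but present mutant signal thus occurred side by side in the same stretch.

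Where Cy3 was not well above background, only a bound on the difference can be given, with the dimmest Cy3 among well-measured probes of that array (34.4 to 42.7) in place of the mutant signal where the latter was lower. For Gm_CUST_P12524056, Cy3 was 29.7, 22.3, 29.5 and 23.9 in plants 15, 39, 35 and 45, and Cy5 was 2381, 2299, 2394 and 2528. The mutant signal was therefore at least 55.1-fold lower than that of “M92-220” in P05 and at least 70.1-fold lower in P06. For Gm_CUST_P12523624 it was at least 35.7-fold lower in P05 and 43.8-fold in P06. Where the reference was dimmer the bound was weaker: at Gm_CUST_P12524077, with Cy5 from 237 to 318, it was 5.92-fold in P05 and 8.32-fold in P06. Gm_CUST_P12524699 had Cy5 of 67.2 at most, and its bounds were 1.34-fold and 1.19-fold, which do not reach the 50% of the threshold; with normexp its mean was -0.24. By contrast Gm_CUST_P12525058, at 1551102 to 1551147, kept a Cy3 signal of 437, 394, 528 and 541 in plants 15, 39, 35 and 45, with Cy5 from 3318 to 3729.6 and a measured mean log2 ratio of -2.91.

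**Figure D5:**
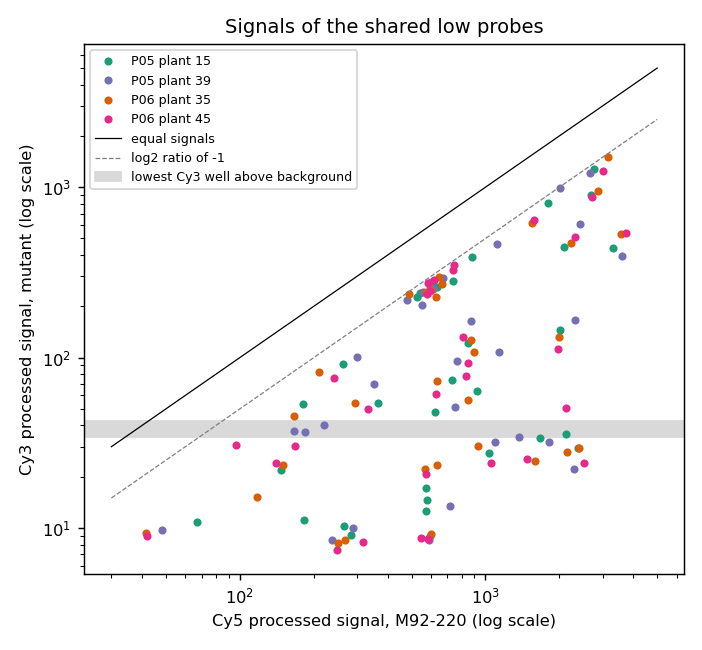
Cy3 processed signal of the mutant (y axis, log scale) against Cy5 processed signal of “M92-220” (x axis, log scale) for the 31 shared low probes on each of the 4 arrays. All points lie at or below the dashed line of a log2 ratio of -1, and the gray band, at 34.4 to 42.7, spans the dimmest Cy3 signals that were well above background on the 4 arrays.

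Besides the 31 probes, smaller shared shifts were frequent in the stretch and nearly all went down. Another 28 probes of the window were at -0.5 or lower in every plant without reaching -1 in all of them, and 27 of these lay inside the stretch; the exception was Gm_CUST_P12522568 at 1112908 to 1112952, with a mean of -0.84. Counting both, 59 probes of the window were at -0.5 or lower in all plants, and 0.294% of all probes on the array were. In the opposite direction 5 probes were at 0.5 or higher in every plant, 2 of them inside the stretch, and on the whole array this was 0.177% of probes. The higher probes inside were Gm_CUST_P12523942 at 1352963 to 1353022, with 0.77 ± 0.032 (SD, n = 4 plants), and Gm_CUST_P12526059 at 1733884 to 1733943, with 0.64 ± 0.042. No probe of the window reached 1 in all plants, whereas over the array 193 probes (0.0203%) did, against 237 that were at -1 or lower. These directions are those the window was chosen for and were not tested.

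Of the low probes, 26 were 60 bp long (83.9%), against 69.2% of the window, and the shortest was 45 bp. The median distance between successive probe starts was 466 bp in the stretch, 439 bp before it and 534 bp after it. Of the 1 Mb windows of the genome that held probes, 958 in number, 855 held no shared low probe and 78 held 1. This window held 31 of the 237 low probes of the array (13.1%), followed by the windows that start at 13 Mb of chromosome 18 with 22 and at 23 Mb of chromosome 17 with 19. Per probe the order differed. Of the 16 windows with at least 3 such probes, 6 had a higher share than the 1.88% here, from 2.22% to 3.20%, the highest in the window that starts at 14 Mb of chromosome 5. Among the 951298 probes with a value on all arrays, 35 were at -2 or lower in every plant, and 18 of these were in the window. Gm_CUST_P12524699 was one of them, although its Cy3 bounds were only 1.34-fold in P05 and 1.19-fold in P06. A deletion that plant 39 lacks adds no probe to counts over every plant. The window was chosen by these same ratios, so its rank and these counts were not tested.

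In the paper, chromosome 16 is among those named as having putative homozygous deletions in FN0176450, as are chromosomes 6 and 10. Its text gives no positions for them, so whether this stretch was meant is not known. Since the mutant family also carries deletions, the stretch was set beside one of similar length, on chromosome 10 from 14796450 to 15370810. There, 97.2%, 97.6% and 97.2% of the 249 probes were at -1 or lower in plants 15, 35 and 45, and the medians were -5.33, -5.33 and -5.44. In the chromosome 16 stretch 4.33% of the probes were that low in plants 15 and 39, 4.57% in plant 35 and 4.45% in plant 45, with medians from -0.10 to -0.050. The 2 stretches differed also in which plants were low, but both were chosen by the ratios of these plants. Plant 39 had 0.402% of probes at -1 or lower and a mean of -0.052 in the chromosome 10 stretch, and at the deletion of chromosome 6, from 18128869 to 18201820, its mean was -0.081 while the other 3 plants stood at -4.64 to -4.55. Plant 39 was as low as the other plants at the shared low probes of chromosome 16. Those probes were kept only if low in every plant, so this was fixed by their choice. The ends of both deletions were set from the ratios of plants 15, 35 and 45, without plant 39. These values are therefore given without a test.

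The contrast between the lines was not what the window was chosen for, and it was tested with limma over all 951298 probes that had a value on each array. Of the 1650 probes of the window, 1 differed between P06 and P05 at an adjusted p under 0.05 (limma, Benjamini-Hochberg), and over the array 0.101% of probes did, 0.0954% lower and 0.00536% higher in P06. It was not one of the 31 low probes. Among those, P06 minus P05 was positive at 12 and negative at 19, with a median of -0.030 and adjusted p from 0.521 to 0.994 (limma). The 31 had to be low in the plants of both lines, so a probe low in 1 line only could not be among them. The absence of calls among the 31 is therefore not independent of their choice. Unadjusted, 9 of the 31 and 162 of the 1650 had a p under 0.05 in limma, and 8.14% of all probes did. The plants of both lines did not overlap at 13 of the 31 (41.9%), against 40.6% of all probes. With 2 plants per line, a p that misses the threshold does not show equal ratios. The largest difference was at Gm_CUST_P12524357, at 1416879 to 1416923, with -3.30 and -3.88 in the P05 plants 15 and 39 and -2.77 and -2.61 in the P06 plants 35 and 45. All 4 values were well below 0 and the lines did not overlap, with a difference of 0.90 (SE 0.18, limma adjusted p = 0.521); Cy3 was not well above background in plant 39.

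More probes of the window, and of the whole array, were called by limma when either P05 plant was left out. Those fits leave 1 plant in P05, which is assumed to vary like the P06 plants, so their counts are not given. Without plant 15, 33 probes were low in all of the other plants, and without plant 39 it was 32, and the span stayed 499.8 kb.

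The called probe was Gm_CUST_P12523283, at 1231710 to 1231769, outside the stretch. It stood at -0.17 and -0.088 in plants 15 and 39 of P05 and at 0.70 and 0.69 in plants 35 and 45 of P06, higher in P06 by 0.83 (SE 0.069, limma adjusted p = 0.0108). The call was lost with normexp, where the difference was 0.14 (limma adjusted p = 0.515). An estimated difference under 1 could not pass limma's treat against a difference of 1, so nothing is read from that setting here. Cy3 was alike on all arrays, at 65.0, 62.0, 64.7 and 64.2 in plants 15, 39, 35 and 45. Cy5 of the common reference was 73.1 and 66.2 on the P05 arrays and 39.9 on both P06 arrays. The lines thus differed in the signal of the reference DNA more than in that of the mutant, at a probe far dimmer than the window's median. The 3 probes on either side differed by -0.16 to 0.087 between the lines, and none passed the test.

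Probes that were low in some plants were few. In the window, 8 probes were at -1 or lower in 1 plant, 3 in 2 plants and 3 in 3 plants, all inside the stretch. Their means ran from -1.67 to -0.48. At 2 of them plant 39 stood apart, a choice made after the values were seen. Gm_CUST_P12524779, at 1489674 to 1489733, had -1.95, -1.93 and -2.05 in plants 15, 35 and 45 and -0.74 in plant 39. Gm_CUST_P12525702, at 1658770 to 1658829, had -0.50, -1.14 and -0.77 in those plants and 0.50 in plant 39. On the array of plant 39, however, the reference signal itself was low at both, 8.89-fold and 44.5-fold below the median of the other arrays, and Cy3 was 3.86-fold and 18.4-fold lower. Over the window, 37 probes (2.24%) of that array had a Cy5 signal more than 3 times below the median of the other arrays, of which 36 had as low a Cy3, and the other arrays had 0 such probes. Over all probes the share was 1.89% for plant 39 and at most 0.0223% for the others. One of these 37, Gm_CUST_P12525407 at 1610080 to 1610131, was among the 31 low probes, and its ratio of -1.43 in plant 39 was close to the -1.59, -1.60 and -1.63 of plants 15, 35 and 45. The part of these dim spots in the difference of plant 39 was not tested.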

How the data were processed

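The authors deposited a scanner file per array, in which Agilent's Feature Extraction software had background-subtracted, detrended and linearly dye-normalized the intensity of each spot. A deposited table of log2 ratios differed from these values by 1 constant per array, from -0.0426 to -0.0180 (within 0.01 for at least 99.98% of probes). The medians of that table were -0.0509 to -0.0235, and its centering is not given in the sources used here. Here, 210 to 861 spots per array with non-uniformity or population flags were dropped, spots of a probe were averaged, and log2 of Cy3 over Cy5 was set to a median of 0 per array, without loess or quantile normalization. Median signals were 1032 to 1053 in each dye, and a slide held 1 array. Lines were compared with limma 3.58.1 in R 4.3.3 (1 mean per line, eBayes, Benjamini-Hochberg) after a test on simulated data, and other steps used Python 3.11.15 with pandas 2.3.3. Named probes are the first and last low probe of a cluster and those next to them, the 10 lowest, those at the threshold and calls between lines; others (such as the probes shared at 0.5 or higher) were named after their values were seen. Alternatives were centering, spot and dim-probe filters, normexp (offset 50, on median spot signals, since the files held no mean spot signals), the deposited table, thresholds, joining distances, treat and leaving out each plant. Nothing says whether plants were grown apart, so p-values measure the spread between these samples, and the number of arrays limits the precision. The window, its members and lists were chosen with earlier results of these data known.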

Additional observations from a re-analysis of the deposited data

Results flagged for a closer look

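The difference of 0.83 between P06 and P05 at Gm_CUST_P12523283 (limma adjusted p = 0.0108) was the single difference between the lines that passed the test in the window. It was higher in 2 of 2 P06 plants, and with normexp it was 0.14.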

How the results depend on the processing

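No paired analysis was possible because no plant number occurs in both lines. Keeping marked spots, no centering and the table of processed ratios each gave the same 31 low probes. Leaving out probes with dim Cy5 did too, but Cy5 was well above background at all 31, so this filter could remove none. For this count no filter on Cy3 was applied. Normexp on the unprocessed signals gave 20 low probes, of which 19 were among the 31, with a mean of -2.17. The 12 that were lost had a median Cy5 of 270.2, against 935 for those kept. Averaged over the arrays, Cy5 of the lost probes ran from 49.8 to 2212. Cy3 was not well above background on any array at 6 of the lost and at 6 of the kept. A threshold of -0.5 gave 59 probes in 14 clusters with a mean of -2.04 and moved the first low probe to 1112908, and a threshold of -2 gave 18 probes in 4 clusters with a mean of -4.29. Taking the mean of the 4 arrays gave a mean of -2.85, centering on chromosome 16 gave -3.07, and joining probes under 5 kb apart gave 5 clusters. Leaving out a plant gave 31 to 33 low probes, 9 to 10 clusters and means from -3.12 to -2.98. No window probe was called between the lines with normexp, where 252 had an unadjusted p under 0.05 (limma). None was called with limma's treat against a difference of 1 either, where 0 had. The difference of 0.83 at Gm_CUST_P12523283 lies below 1, so it could not pass that test. Fits without a plant leave 1 plant in a line, so their calls are not given. At Gm_CUST_P12523283 the difference was 0.79 to 0.86 when a plant was left out, and 0.14 with normexp (limma adjusted p = 0.515). For these changes, the cause was not tested. With normexp, 26 of the 31 low probes moved in their mean by more than the SD over plants, and the means ran from -3.95 to -0.24. Under the settings that keep the threshold and the single arrays, other than normexp, the means of all 31 stayed within it. Signal over background limits the deepest ratios.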
